A study of Mus musculus with 1 sample.

Results

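The cells described here are stem-like cells of mouse bone marrow in which at least 1 transcript of Vwf was counted. They came from 1 single-cell RNA-seq library of lineage-negative, Kit-positive (Lin- Kit+) cells, which were sorted to enrich blood stem cells and early progenitors. The mice were of the C57BL/6 strain and carried Brd9fl/fl, floxed alleles of the chromatin factor Brd9, without the Cre that would delete them. They had received 3 doses of 20 mg/kg polyinosinic-polycytidylic acid (pIpC), an inducer of interferon, 8 weeks before the cells were taken. The labels name a CD45.2(+) donor and a CD45.1(+) CD45.2(-) recipient for this sample, whereas the series text and methods describe primary mice, and the sources do not settle this. All cells below share this genotype and treatment.

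Each captured transcript was counted once, by its unique molecular identifier (UMI). A cell was a member if it passed the study's filter, had a UMI of at least 2 of Procr, Hlf and Mecom, had at least 1 Vwf UMI, had no UMI of Flt3 or Treml1, and had fewer than 3 of Pf4. Of 7645 cells that passed the filter, 747 met the gate on all genes but Vwf, and 313 of these had a Vwf UMI. The members were therefore 4.09% of the cells kept (exact 95% interval 3.66 to 4.56). The other 434 gate cells, with Vwf at 0, are the comparison set. A single library gives no spread between mice, so nothing was tested, and the intervals below cover counting error only.

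Vwf encodes von Willebrand factor, a large adhesive glycoprotein that captures platelets at sites of vessel injury. It is made by endothelial cells and by megakaryocytes, which store it in platelet granules, where it meets the receptor formed by Gp1ba, Gp1bb, Gp5 and Gp9. Some blood stem cells also transcribe Vwf, and in mice such stem cells are known for a bias toward platelet production and for becoming more frequent with age. The genes of the gate have separate roles: Procr encodes a surface receptor used to sort stem cells, while Hlf and Mecom encode transcription factors required by stem cells.

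The label was checked against genes that the rule did not use. Slamf1, which encodes the sorting marker CD150, stood at 60.3 counts per 1000000 UMIs (CPM) in the members against 4.90 CPM in the other 7332 cells kept, 12.3-fold higher (interval 10.5 to 14.4). Fgd5, a gene used to report stem cells, was 22.9-fold higher, and Ly6a, which encodes the stem cell antigen Sca-1, stood at 105 CPM against 10.5 CPM. The transcription regulators Meis1, Mllt3 and Hoxa9 were 5.74-fold, 5.88-fold and 3.17-fold higher. Cd48, which encodes a surface protein that long-term stem cells lack, stood at 16.1 CPM against 108 CPM in the other cells. Kit, the receptor used in the sort, was 2.97-fold higher. The members had fewer UMIs per cell than the library as a whole, with a median of 9202 against 18696 over all cells kept, and a median mitochondrial share of 4.86%.

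Vwf itself, which lies at chr6:125546774-125686679 on the plus strand (mm10), was at few UMIs per cell. Of the 313 members, 161 (51.4%) had 1 Vwf UMI, 85 (27.2%) had 2, 49 had 3, 11 had 4, 3 had 5 and 4 had 6. Together they held 561 of the 3843 Vwf UMIs in the cells kept, of which 1302 cells had any. The other 989 Vwf-positive cells were outside the gate. Of them, 174 had the stem genes but were left out for Treml1 or Pf4, and 43 were left out for Flt3. At the Pf4 limit, 22 members had 2 Pf4 UMIs, and 12 cells just outside it had 3 to 5. At the limit on stem genes, 74 cells had Vwf with only 1 of the 3.

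The share of cells with a Vwf UMI went with the number of stem genes detected. It was 5.96% of 3828 cells with none of the 3 stem genes, 11.4% of 648 cells with 1, 36.2% of 412 cells with 2 and 49.0% of 335 cells with all 3, in each case with Flt3, Treml1 and Pf4 under the same limits. All 3 stem genes were detected in 164 members (52.4%, interval 46.7 to 58.0) and in 171 of the 434 gate cells without Vwf (39.4%, 34.8 to 44.2), and deeper cells show more of both. Pf4, a platelet chemokine, was at 0 in 73.8% of the members and in 74.0% of the cells without Vwf. The rule held Pf4 under 3 UMIs in both sets, so these shares only describe the cells it let in.

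**Figure D1:**
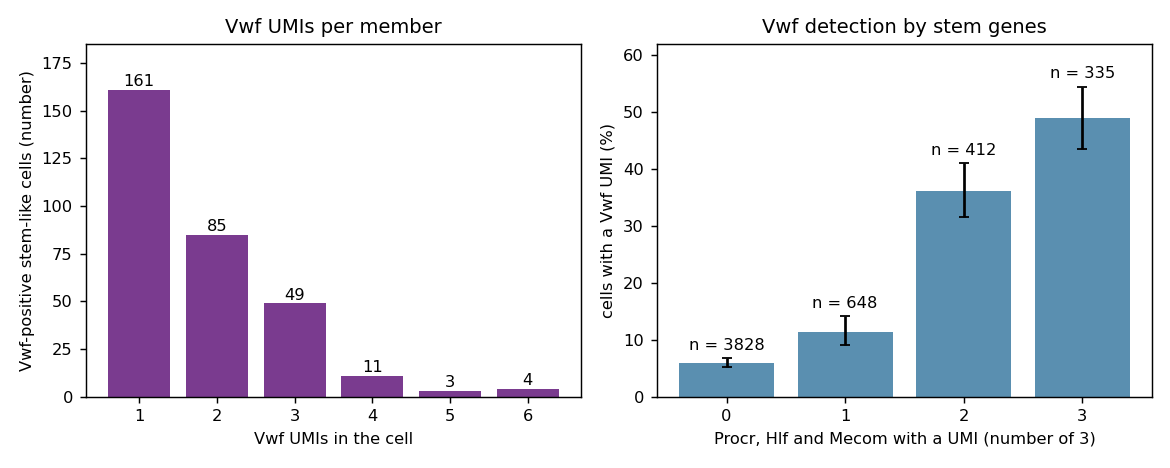
Left, the number of Vwf-positive stem-like cells by their Vwf UMIs. Right, the share of cells with a Vwf UMI (%) by how many of Procr, Hlf and Mecom were detected, among cells with Flt3 and Treml1 at 0 and Pf4 under 3, with exact 95% intervals as bars and the number of cells above. Single UMIs make up 161 of the 313 members, and the share climbs from 5.96% to 49.0%.

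Detection of Vwf depended on depth. When each cell was thinned at random to 5000 UMIs, 216 of the 308 members deep enough (70.1%, interval 64.7 to 75.2) still had a Vwf UMI, and the Vwf-positive share of the gate went from 41.9% (38.3 to 45.5) to 29.3% (26.0 to 32.7). A gate cell at Vwf 0 is thus a cell in which none was counted, and not one shown to lack the transcript. As background, neutrophil-lineage cells, which should lack Vwf, had a Vwf UMI in 3.96% of 1491 cells at a median of 21717 UMIs, and in 1.08% when thinned. Erythroid cells had one in 17.9% of 1829 cells at a median of 27938 UMIs, and in 6.41% when thinned. Both thinned shares were below that of the gate. Megakaryocyte progenitors, defined by Treml1 and at least 3 Pf4 UMIs, had one in 55.8% of cells when thinned.

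The question for the remaining measurements was how stem-like cells with Vwf differ from stem-like cells without it. Each member was paired with the gate cell at Vwf 0 nearest in depth. This gave 311 pairs with medians of 9246 and 9043 UMIs, and left 2 members without a partner. UMIs were summed over each set, and a gene was measured where both sets together held at least 100 UMIs, which 7751 genes did. The ratio of the 2 levels had a median of 1.0 and quartiles of 0.905 and 1.11. At least 1.5-fold higher in the members were 205 genes, 2.64% of those measured, and at least 1.5-fold lower were 122 genes, 1.57%. These are counts past a size, not tested calls.

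Clu and Hoxb8 were among the 3 highest of the 15 genes chosen for their high ratio. Clu encodes clusterin, a secreted chaperone carried in platelet granules, and lies at chr14:65968483-65981547. The Clu level was 98.6 CPM (88.5 to 109) in the members and 31.4 CPM (25.8 to 37.9) in the matched cells, 3.14-fold higher (2.52 to 3.92). A Clu UMI was found in 56.6% of the members and 24.1% of the matched cells, and in 38.0% and 15.3% when thinned, against 4.58% of thinned neutrophil-lineage cells. Hoxb8, a homeobox gene at chr11:96281905-96285315, stood at 30.5 CPM and 9.14 CPM, 3.34-fold higher (2.23 to 5.12). Neither gene depended on a few cells: without the 3 cells of each set with the most UMIs the ratios were 3.38 and 4.24.

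The other genes chosen for a high ratio had varied roles. Mt2, a metallothionein that binds zinc and copper, was 2.60-fold higher (2.03 to 3.34), and its neighbour Mt1 was 1.86-fold higher. The long noncoding RNA Gm10419 stood at 86.4 CPM against 33.4 CPM, 2.58-fold higher (2.08 to 3.23). Sbspon, which encodes a secreted protein with a thrombospondin repeat, was 2.50-fold higher. Lpl, which encodes lipoprotein lipase, was 2.53-fold higher, and Meg3, an imprinted noncoding RNA, 2.48-fold higher. Jam2, which encodes a junctional adhesion molecule, was 2.23-fold higher, and Ehd3, which encodes a protein of endosome recycling, 2.11-fold higher. Klrb1c, the receptor gene behind the NK1.1 antigen, was 2.61-fold higher, and the nuclear receptor genes Rorb and Pgr were 2.54-fold and 2.11-fold higher. Ces2g, a carboxylesterase gene, and Zg16, a lectin gene, were 2.16-fold and 2.10-fold higher. Klrb1c and Ces2g belong to gene families, and Klrb1c, Jam2 and Meg3 overlap another gene on their strand, so their reads are less certain.

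Cdkn1a had the highest ratio of the named genes, 4.26 (2.88 to 6.47), at 39.0 CPM against 9.14 CPM. It encodes p21, an inhibitor of cyclin-dependent kinases. Of its UMIs in the members, 46.4% were in 3 cells, and without the 3 top cells of each set the ratio was 3.06 (1.91 to 5.07).

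Surface genes of more differentiated progenitors were among the 15 genes chosen for a low ratio. Cd34, which encodes a sialomucin that marks short-term stem cells and progenitors and is low on long-term stem cells of the adult mouse, stood at 59.9 CPM (52.1 to 68.5) in the members and 144 CPM (132 to 157) in the matched cells, 2.41-fold lower. Cd48 was 2.70-fold lower, at 16.1 CPM against 43.4 CPM. Cd52, a small surface glycoprotein gene of lymphoid and myeloid cells, was 2.30-fold lower. Bex6 had the lowest ratio of these 15 genes, at 6.78 CPM against 24.6 CPM, 3.63-fold lower. Ccl9, a chemokine gene, was 2.72-fold lower, and Tespa1, a gene of antigen receptor signalling, 2.47-fold lower. Ms4a6c, Tm6sf1, F630028O10Rik, BC035044, Kcnk12 and Sh2d5 were between 2.36-fold and 2.02-fold lower.

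**Figure D2:**
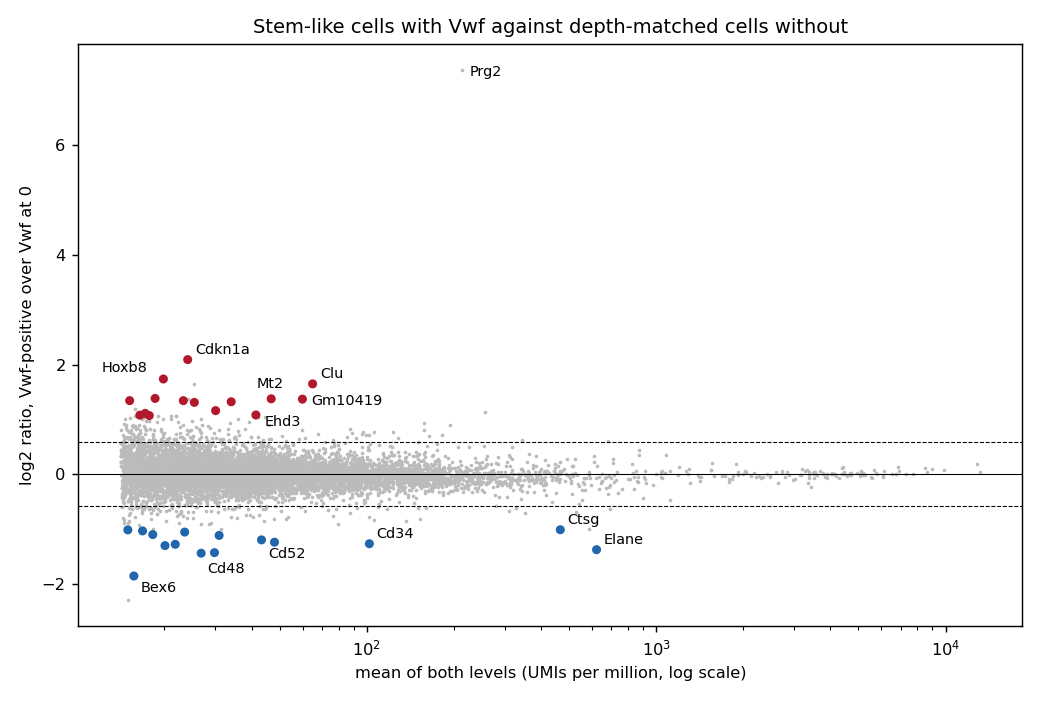
Each point is 1 of 7751 genes: the mean of its levels in the matched sets (CPM, log scale) against the log2 ratio of Vwf-positive over Vwf 0 cells. Red and blue are the 15 genes chosen for a high and the 15 for a low ratio, and dashed lines mark 1.5-fold. Most points lie near 0, and the point far above the rest is Prg2, with 1478 of its 1506 UMIs in 1 member.

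Among genes of platelets and megakaryocytes, the members were higher on the whole. Of 30 listed genes, 20 were measured, 5 of them at least 1.5-fold higher and none as much lower, and their median ratio was 1.26 against 1.0 over all genes. Over all genes measured, 2.64% were that much higher and 1.57% that much lower, for this and each later list count. The list as a sum stood at 2436 CPM against 1894 CPM, 1.29-fold higher (1.25 to 1.33). Besides Clu these 5 were Itga2b, Gp9, Selp and Cavin2. Itga2b encodes CD41, the alpha chain of the fibrinogen receptor, and stood at 112 CPM against 66.6 CPM, 1.68-fold higher (1.42 to 1.98). Selp encodes P-selectin, a granule protein that moves to the surface of activated platelets, and stood at 120 CPM against 72.3 CPM, 1.66-fold higher. Cavin2, a gene of caveolae, was 1.74-fold higher, and Gp9 was 1.61-fold higher. Itgb3, the partner chain of Itga2b, and Mmrn1, a granule protein gene, were below the limit at 1.46-fold and 1.42-fold. Gata1, the lineage's transcription factor gene, had 36 and 42 UMIs.

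Several listed genes of the late platelet program were nearly absent, in a gate that itself left out cells with Treml1 or at least 3 Pf4 UMIs. Gp6 and Tubb1 were at 0 in both sets, Ppbp had 2 and 4 UMIs, and Gp1ba, the chain that binds von Willebrand factor, had 6 and 14. Gp5 had more, at 49 and 38 UMIs. Of the 15 genes listed as partners of von Willebrand factor in binding, storage or cleavage, 10 were measured and 4 were at least 1.5-fold higher: Itga2b, Gp9, Selp and Rab3d, a gene of granule release that stood at 19.5 CPM against 12.0 CPM. Adamts13, the protease that cuts von Willebrand factor, was at 0 in both sets.

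The promoters of 4 of these 5 platelet genes, for which RefSeq (GRCm38.p6) held an entry, are shown because the genes were higher together. Each run is the 250 bases before the transcript start, 5′ to 3′ on the gene's strand, with ETS letters (CAGGAAG or CCGGAAG or GAGGAAG, on either strand) in capitals. GATA letters (AGATAA or TGATAA or AGATAG or TGATAG) were searched too and were not in these 4 windows. They lie at chr11:102469884-102470133 (Itga2b, minus strand, where 1 minor GENCODE transcript starts further upstream), chr6:87777820-87778069 (Gp9, plus), chr1:164115014-164115263 (Selp, plus) and chr1:51288876-51289125 (Cavin2, plus).
Itga2b: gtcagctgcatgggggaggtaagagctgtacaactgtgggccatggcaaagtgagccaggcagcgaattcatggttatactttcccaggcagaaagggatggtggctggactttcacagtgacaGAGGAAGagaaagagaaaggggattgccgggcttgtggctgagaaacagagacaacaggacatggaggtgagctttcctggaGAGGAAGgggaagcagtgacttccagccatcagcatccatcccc
Gp9: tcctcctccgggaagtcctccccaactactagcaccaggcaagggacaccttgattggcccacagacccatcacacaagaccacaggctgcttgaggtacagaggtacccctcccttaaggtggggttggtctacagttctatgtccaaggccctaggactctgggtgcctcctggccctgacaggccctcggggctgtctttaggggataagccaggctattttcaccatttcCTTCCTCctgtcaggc
Selp: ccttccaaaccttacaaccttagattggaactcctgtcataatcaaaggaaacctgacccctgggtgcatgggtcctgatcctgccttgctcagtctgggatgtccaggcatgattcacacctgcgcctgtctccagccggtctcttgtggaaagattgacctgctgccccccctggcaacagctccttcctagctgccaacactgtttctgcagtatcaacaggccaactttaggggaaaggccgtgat
Cavin2: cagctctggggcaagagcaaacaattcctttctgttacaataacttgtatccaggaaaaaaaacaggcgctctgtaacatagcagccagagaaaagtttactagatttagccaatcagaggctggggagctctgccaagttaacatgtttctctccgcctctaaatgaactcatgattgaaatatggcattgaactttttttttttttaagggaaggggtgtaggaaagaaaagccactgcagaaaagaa
Itga2b held ETS letters at 2 places and Gp9 at 1, while Selp and Cavin2 held none. Among all higher genes, 30.2% of 162 windows held ETS letters and 25.3% held GATA letters. For the lower genes these shares were 43.5% and 18.8% of 85 windows, and for all genes measured 37.3% and 19.4% of 6252, while among all 27025 windows of the RefSeq table they were 28.2% and 29.7%. A match of letters is a description and not a bound site.

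The window before Hoxb8 (chr11:96281655-96281904, plus) is shown because Hoxb8 had the highest ratio of the 15 genes chosen for a high ratio once the 3 top cells of each set were left out. It held GATA letters at 1 place, in capitals on the opposite strand, and no ETS letters.
Hoxb8: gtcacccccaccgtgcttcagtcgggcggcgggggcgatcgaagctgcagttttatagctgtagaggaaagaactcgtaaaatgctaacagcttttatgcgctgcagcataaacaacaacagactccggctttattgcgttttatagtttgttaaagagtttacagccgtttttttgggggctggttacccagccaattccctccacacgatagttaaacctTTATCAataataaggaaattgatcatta
The other Hoxb genes, looked at after the values were seen, had lower ratios than Hoxb8. Hoxb6, below the count needed to be measured at 47 and 19 UMIs, was 2.44-fold higher (1.41 to 4.41). Hoxb7 and Hoxb9 had at most 21 UMIs in a set. Hoxb2 was 1.59-fold higher (1.19 to 2.13), Hoxb5 1.39-fold, Hoxb3 1.17-fold and Hoxb4 1.10-fold, while Hoxa9 and Hoxa10 had ratios of 0.85 and 0.95.

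Regulators of stem cells were also higher on the whole, though by less. Of 24 listed genes 23 were measured, 5 were at least 1.5-fold higher and none as much lower, with a median ratio of 1.21. As a sum they stood at 4636 CPM against 3896 CPM, 1.19-fold higher (1.16 to 1.22). Among the 5 were Fgd5 at 2.01-fold (1.47 to 2.77), Ndn at 1.94-fold, Mllt3 at 1.64-fold and Prdm16 at 1.57-fold. Mllt3 and Prdm16 are known to sustain stem cells, and Ndn is an imprinted gene that restrains cell division. Gata2 stood at 300.2 CPM against 210 CPM, 1.43-fold, while Hoxa9, Etv6 and Erg had ratios of 0.85, 0.96 and 1.06. Of the rule's own genes, Hlf had a ratio of 1.01, Mecom 1.10 and Procr 1.23. In cells with all 3 stem genes the list's ratio was 1.07.

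Surface genes of the sorting schemes for stem cells went both ways. Of 24 measured genes, 6 were at least 1.5-fold higher and 3 as much lower. Slamf1 stood at 59.9 CPM (52.1 to 68.5) against 32.3 CPM (26.6 to 38.8), 1.85-fold higher. Ctnnal1, which encodes alpha-catulin, was 2.08-fold higher, Cd38 1.70-fold and Esam, an endothelial and stem cell adhesion gene, 1.54-fold, and Jam2 and Itga2b were the other 2. Cd34 and Cd48 were among the 3 lower genes. Kit and Ptprc, which encodes CD45, had ratios of 0.98 and 0.97, and Ly6a 1.15.

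A list of genes known to be higher in stem cells of old mice had the most members past the limit. Of 15 measured, 10 were at least 1.5-fold higher and none as much lower, with a median ratio of 1.69. Over all genes measured, 2.64% were that much higher. The list stood at 1728 CPM against 1082 CPM, 1.60-fold higher (1.53 to 1.66). It shares Clu, Selp, Cavin2, Slamf1, Cd38 and Itgb3 with the lists above. Mt1 and Ehd3, given above, are also in it. The others past the limit were Sult1a1 at 1.70-fold, Fhl1 at 1.69-fold and Gda at 1.65-fold, while Nupr1 and Aldh1a1 were 1.25-fold and 1.26-fold higher. Neo1, with 61 and 16 UMIs, was below the count needed to be measured. All mice had the same treatment and time, so the list says nothing here of age.

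**Figure D3:**
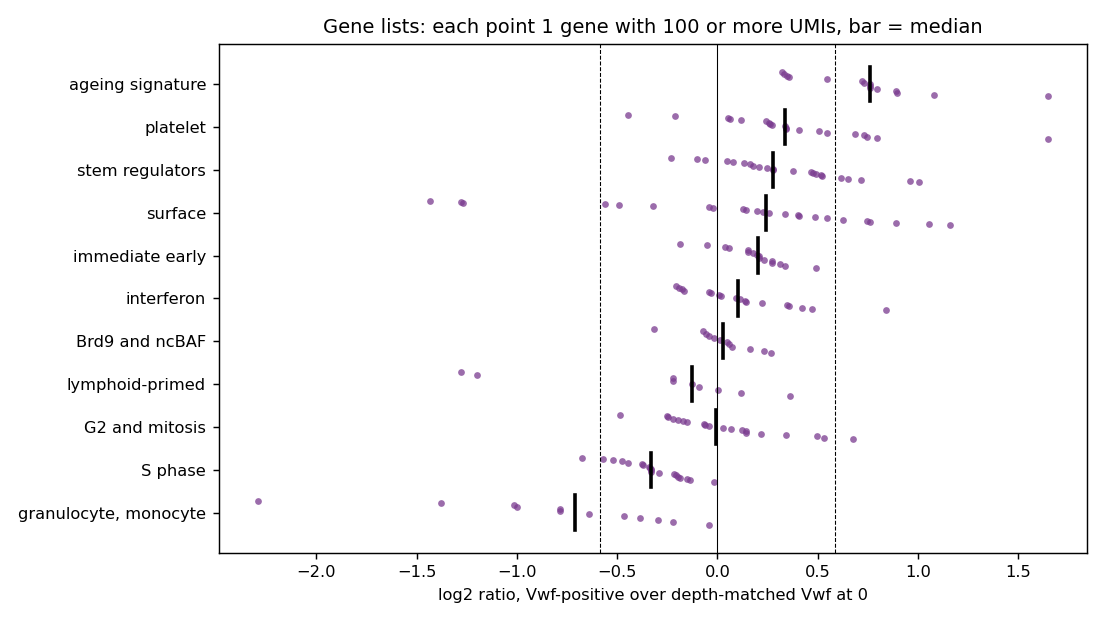
Log2 ratio of Vwf-positive over matched Vwf 0 cells for the genes of 11 lists, each point 1 gene with at least 100 UMIs and each black bar a list's median, with dashed lines at 1.5-fold. Of the lists shown, the medians run from 1.69 as a ratio for the ageing list to 0.61 for the granulocyte and monocyte list.

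Genes of other lineages were examined for cells of mixed identity. Of 12 measured granulocyte and monocyte genes, 7 were at least 1.5-fold lower in the members and none as much higher, and the list stood at 2482 CPM against 4268 CPM, 1.72-fold lower. Mpo and Elane, genes of neutrophil granule enzymes, stood at 392 CPM against 784 CPM and at 346 CPM against 899 CPM. S100a8, a calcium-binding protein gene of neutrophils, had the lowest ratio of these at 0.204 (0.116 to 0.342), with 18 and 87 UMIs, of which 3 cells of each set held 10 and 52. Ctsg was 2.02-fold lower, Irf8, a monocyte and dendritic cell factor, 1.73-fold, and Spi1, which encodes PU.1, 1.56-fold. The sum rested on few cells: 7 members and 19 matched cells held 10000 CPM or more of this list, while the median cell stood at 1172 CPM and 1232 CPM. Without 19 members and 56 cells at Vwf 0 that held at least 5000 CPM of another lineage's list, the list's ratio was 0.963 and that of Elane turned to 1.19, while Cd34, Cd48, Clu and Hoxb8 kept their direction. Of Elane's UMIs 62.5% in the members and 44.0% in the matched cells were in 3 cells, and 40.5% of members had one against 37.3%.

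Other lineages showed smaller or unstable differences. Of 9 measured lymphoid-primed genes none was at least 1.5-fold higher and 2 as much lower, Cd52 among them, where 1.57% of all genes were. Their median ratio was 0.917, while the sum had a ratio of 1.03 (0.978 to 1.08). The erythroid list was 1.24-fold higher, with Aqp1, a water channel gene, at 1.73-fold and Car2, a carbonic anhydrase gene, at 1.36-fold, and its median ratio was 1.04. Of 6 measured basophil and mast cell genes 5 were at least 1.5-fold higher, with a median ratio of 2.13, but 3 cells held 76.3% of the list's UMIs in the members and 81.4% in the matched cells, and the list's ratio of 1.89 turned to 0.795, 0.954 and 0.340 in 3 of 12 alternatives. No UMI of that list was found in 251 members and 218 matched cells. Of the B, T and NK cell list 2 genes were measured, and Nkg7 was 1.81-fold lower.

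Endothelial cells also express Vwf, Procr and Mecom, so their defining genes were counted in the members. Cdh5 and Stab2 were at 0 in both sets, Flt1 had 0 and 2 UMIs, Plvap 2 and 2, and Kdr 31 and 14. A count of 0 over the members allows up to 3 UMIs of their 3541145. Cldn5, which encodes a tight junction protein, stood at 56.5 CPM against 27.4 CPM, 2.06-fold higher (1.61 to 2.65). Kdr, which encodes a receptor of vascular endothelial growth factor, had a ratio of 2.19 (1.13 to 4.45). The sum of the 6 defining genes was 65.8 CPM and 32.6 CPM, and Cldn5 made up 200 of its 233 UMIs in the members and 96 of 114 in the matched cells. Of 9 stromal genes none reached the count needed to be measured. Doublet calls fell on 16 members (5.11%) and 20 cells at Vwf 0 (4.61%).

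Genes of DNA replication were lower in the members, while for those of mitosis the difference varied with how cells were chosen and weighted. All 20 S phase genes were measured, with a median ratio of 0.79, and the list stood at 1599 CPM against 1980 CPM, 1.24-fold lower. Only Cdc45, a replication factor gene, was past the limit, at 1.60-fold lower, and Mcm6, a subunit of the replicative helicase, stood at 120 CPM against 172 CPM. Of 20 genes of G2 and mitosis, Cenpe, a centromere motor gene, was 1.60-fold higher, the median was 0.99 and the sum had a ratio of 1.01 (0.970 to 1.05). That ratio was 0.906 (0.841 to 0.975) after thinning, 0.871 as a mean over cells, 0.767 among cells with Pf4 at 0 and 1.04 under the stricter cell filter, and the median cell held 173 CPM of these genes in the members and 242 CPM in the matched cells. Cdk6, a kinase gene of cell cycle entry, stood at 288 CPM against 396 CPM, 1.37-fold lower. Cdkn1c, which encodes the inhibitor p57, was 1.46-fold higher, and the D-type cyclin genes Ccnd1, Ccnd2 and Ccnd3 had ratios of 1.16, 0.98 and 0.98. The median cell held 852 CPM of both phases' genes in the members and 1202 CPM in the matched cells.

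Of the remaining lists, those other than the imprinted and the immediate early genes had medians near that of all genes. Of 18 measured interferon-induced genes 1, Ifit2, was at least 1.5-fold higher, at 67 against 37 UMIs, and the list's ratio was 1.12. None of 16 measured immediate early genes was past the limit, but their median of 1.15 was above the upper quartile of all genes, 1.11. The immediate early list stood at 8772 CPM against 7655 CPM, 1.15-fold higher (1.13 to 1.16). None of 15 genes of cytokine receptors and adhesion was past the limit, with a median of 0.98. None of 12 measured genes of Brd9 and its complex, the non-canonical BAF, was past it, with a median of 1.02. Brd9 itself had 123 and 101 UMIs, a ratio of 1.20 (0.92 to 1.58). Of 6 measured imprinted genes Meg3 and Ndn were past the limit, Grb10 was 1.46-fold higher, and the median ratio was 1.46.

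The levels were then set out by the number of Vwf UMIs in the cell, from the matched cells with none to members with 1, 2 and at least 3. These groups had medians of 8719, 9202 and 10242 UMIs per cell among the members. Clu stood at 31.4, 81.0, 117 and 115 CPM. Cavin2 stood at 115, 170, 218 and 243 CPM, and Ehd3 at 26.6, 47.5, 59.1 and 71.5 CPM. Thus Clu levelled off at 2 UMIs, whereas Cavin2 and Ehd3 were higher at each step, though neighbouring intervals among the members overlapped in part. Hoxb8 stood at 9.14, 27.4, 31.6 and 38.2 CPM, with most of the difference between none and 1. Cd34 stood at 144, 66.5, 64.3 and 40.7 CPM, and Cd48 at 43.4, 22.9, 12.7 and 4.93 CPM, the lowest in the cells with the most Vwf. The platelet list went from 1894 to 2253, 2577 and 2671 CPM, and the list of stem cell regulators from 3896 to 4506, 4704 and 4832 CPM.

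Some of the genes that set the members apart were also high in megakaryocyte progenitors and others were not. Against 1210 progenitors with Flt3 and without Vwf, Pf4 or Treml1, the 447 megakaryocyte progenitors form a contrast with no cell of the gate in it. Of the 205 higher genes, 171 could be measured there. Of these 171, 104 (60.8%) were at least 1.5-fold higher in the megakaryocyte progenitors and 13 (7.60%) in the Flt3 progenitors. Of the 122 lower genes, all of them measured, 2 (1.64%) and 68 (55.7%) were. Over all 7681 genes measured there the shares were 15.9% and 8.42%. The higher genes left out had too few UMIs in these progenitors. Hoxb8, for example, had 8 in the megakaryocyte and 7 in the Flt3 progenitors. The share of 60.8% therefore does not cover higher genes that were scarce in both. Itga2b stood at 563 CPM, Cavin2 at 450 CPM, Ehd3 at 107 CPM and Clu at 87.6 CPM in the megakaryocyte progenitors. By contrast Hoxb8 stood at 0.91 CPM there, Meg3 at 0.80 CPM, Klrb1c at 1.14 CPM, Sbspon at 1.60 CPM, Pgr at 2.17 CPM and Fgd5 at 2.97 CPM. These 6 were lower in the megakaryocyte progenitors than in the members and in the matched cells alike.

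**Figure D4:**
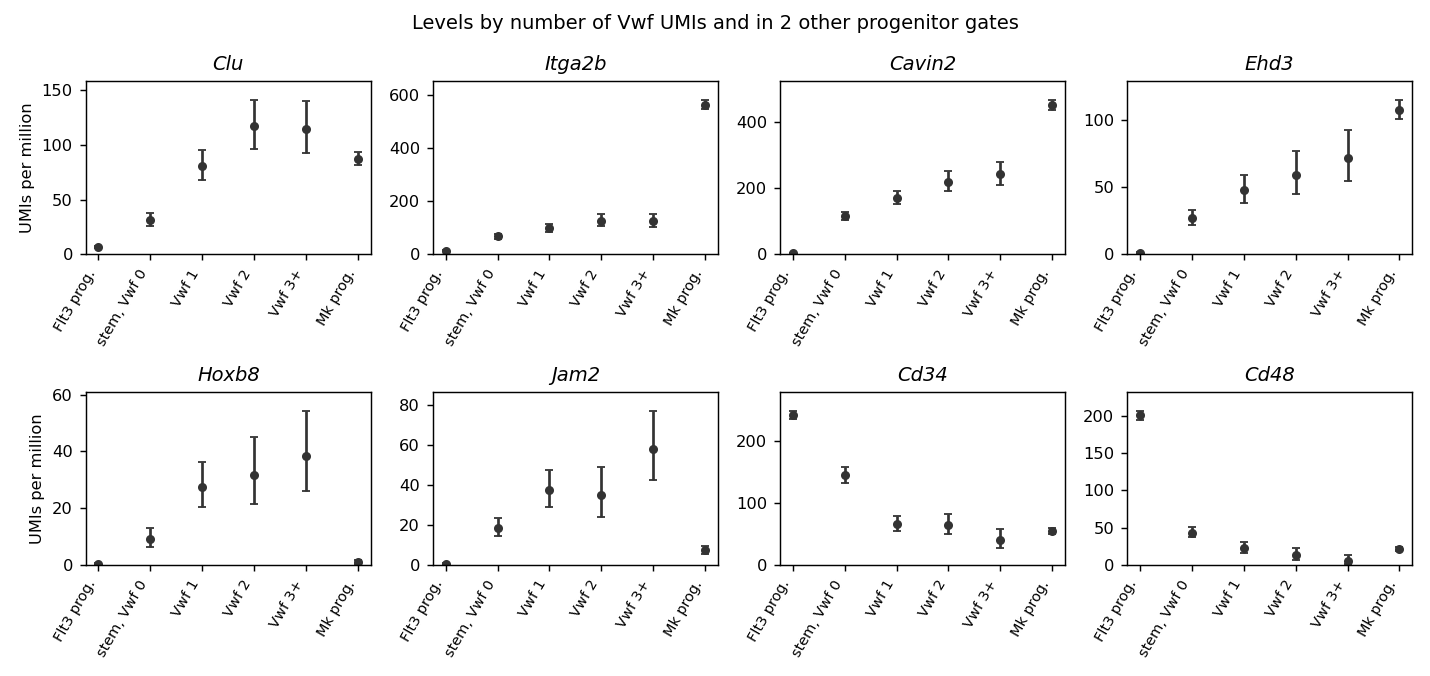
Levels of 8 genes (CPM, with exact 95% Poisson intervals) in Flt3 progenitors, matched stem-like cells with Vwf at 0, members with 1, 2 and at least 3 Vwf UMIs, and megakaryocyte (Mk) progenitors. Itga2b, Cavin2 and Ehd3 are highest in megakaryocyte progenitors, Hoxb8 and Jam2 in the members, and Cd34 and Cd48 in Flt3 progenitors.

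The members had somewhat more Vwf-positive cells among their nearest neighbours than their share of the gate, but the sets were mixed. On principal components of genes the rule did not use, with each cell thinned to 5000 UMIs, 48.7% of a member's 15 nearest gate cells were Vwf-positive on average, against 36.5% for cells at Vwf 0 and 41.7% of the 738 cells in all. The share was 46.7% for members with 1 Vwf UMI, 48.7% with 2 and 53.2% with at least 3.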

How the data were processed

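Single-cell RNA-seq was analysed for 1 control library. The authors deposited UMI counts per gene and barcode, made with Cell Ranger 6.0.2 on mm10 and not normalized. The labels describe a bulk RNA kit, while the file header and the methods describe 10x Chromium 3' libraries, and the counts have the form of the latter. A further library of deleted cells was not analysed here.

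The study's filter (UMIs between 1000 and 50000, genes between 1000 and 6500, mitochondrial share under 7%) kept 7645 of 8817 barcodes, at 1592 to 49991 UMIs each. The members, the gene lists and the comparisons were chosen with earlier results of these data known. Gate cells with and without Vwf were matched 1 to 1 on log2 UMIs, at most 0.1 apart. UMIs were summed per set and divided by the set's total (CPM). Sums have exact Poisson intervals, shares exact Clopper-Pearson intervals and ratios exact conditional binomial intervals, all at 95% and for counting error only (scipy 1.17.1). Genes were named if listed, or if among the 15 highest or 15 lowest ratios with at least 100 UMIs over both sets and a UMI in at least 10% of cells of the higher set, leaving out the rule's genes. The results of 3 genes that these rules name are not reported here. Thinning was to 5000 UMIs. Neighbours used 20 principal components (numpy 2.4.6). Scrublet (scanpy 1.11.5) marked 268 of the cells kept as doublets (3.51%), which were kept and then removed in an alternative.

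Positions are from GENCODE M21 on GRCm38, where all 355 genes looked up were found, 78 of them with a same-strand overlap. Cell Ranger may have used gene models of another release. On simulated counts for 7751 genes of this comparison, 95.7% of intervals held the simulated fold, and 0.662% of unchanged genes passed 1.5-fold by counting error. The simulated sums had no variation between cells, so they do not show how many genes would pass because of it.

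Alternatives changed the depth match, the Vwf, stem gene and Pf4 limits, the cell filter, doublets, the CPM denominator, the weight of cells, the UMI floor and the neighbour settings. Leaving out cells of mixed lineage, or the 3 top cells of a gene or list, was chosen after seeing the data.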

Additional observations from a re-analysis of the deposited data

How the results depend on the processing

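Members with at least 2 Vwf UMIs were 20.3% of the gate, and 49.0% of the cells with all 3 stem genes were Vwf-positive, while thinning gave 29.3%. The number of genes at least 1.5-fold higher was 309 without a depth match, 90 after thinning, 65 with all 3 stem genes, 120 with Pf4 at 0, 442 at a floor of 50 UMIs and 70 at a floor of 200. Lower genes numbered 74 with all 3 stem genes, and 234 and 56 at these floors. The smaller sets also measured fewer genes, 5329 after thinning and 4157 with all 3 stem genes. The platelet list's ratio was 1.39 without a match, 1.23 thinned, 1.43 with at least 2 Vwf UMIs, 1.14 with all 3 stem genes, 1.20 with Pf4 at 0, 1.39 under the stricter cell filter, 1.20 as a mean over cells and 1.23 without cells of mixed lineage. For the stem regulators these were 1.27, 1.16, 1.26, 1.07 and 1.15 in the first 5, then 1.15 as a mean over cells and 1.14 without cells of mixed lineage. The lymphoid-primed ratio was 0.977 thinned and 0.970 with all 3 stem genes.

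The ratio of S and G2/M genes, 0.887 in the main comparison, was 0.856 without a match, 0.821 thinned, 0.839 when matched from the shallowest cell, 0.848 with at least 2 Vwf UMIs, 0.755 with all 3 stem genes, 0.826 with Pf4 at 0, 0.935 under the stricter filter, 0.844 without doublet calls, 0.801 as a mean over cells, 0.809 without cells of mixed lineage and 0.860 without the 3 top cells. The basophil list turned to 0.795 when matched from the shallowest cell, 0.954 under the stricter filter and 0.340 without cells of mixed lineage. BC035044 turned to 1.10 with all 3 stem genes, and Elane to 1.19 without cells of mixed lineage. The cause of these changes was not tested. The other genes among the 15 highest and 15 lowest ratios kept their direction in all 12 alternatives. Clu ranged from 2.46 to 4.60, Hoxb8 from 2.69 to 4.24, Cd34 from 0.34 to 0.56 and Cd48 from 0.16 to 0.62. Klrb1c reached 9.69 under the stricter filter. Depth limits every Vwf 0 call, and 1 library gives no spread between mice. No paired analysis was possible because there was 1 library and no result came from a test.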

Other observations

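Several genes with roles in these lists had too few UMIs to be measured. Neo1, which encodes the receptor neogenin and is listed among the ageing genes, had 61 UMIs in the members and 16 in the matched cells. Jam3, which encodes a partner of Jam2, had 43 and 15. Satb1, a chromatin organiser gene of lymphoid priming, had 15 and 44. Of the 1172 barcodes that the cell filter removed, 13 met the gene limits of the members and were not used.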
